A study of Homo sapiens with 12 samples.

Results

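The comparison described here is the interaction of YTHDF1 knockout and ARID1A silencing, measured by RNA sequencing in the lung adenocarcinoma line A549. It is the change with ARID1A small interfering RNA in YTHDF1 knockout cells minus the same change in cells with intact YTHDF1, and it uses all 12 of the 12 libraries, in 4 groups of 3. The groups, by the genotype and title of each label, were cells with YTHDF1 knocked out and ARID1A silenced (combined cells), cells with YTHDF1 knocked out (YTHDF1 KO cells), cells with ARID1A silenced (siARID1A cells) and unmodified cells (WT cells). All groups share the line, its growth medium and the library kit, and no label names a control small interfering RNA, so silencing of ARID1A and the transfection itself cannot be told apart. The titles call the YTHDF1 change a knockdown where the genotype field calls it a knockout, and no label says whether the modified cells were a clone or a pool. The labels call libraries biological replicates without saying what they share, so p-values measure the spread between these libraries.

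YTHDF1 is a cytoplasmic reader protein that binds N6-methyladenosine, a methyl mark on messenger RNA, and is known for promoting the translation of marked transcripts. ARID1A is the DNA-binding subunit of the BAF form of SWI/SNF, a complex that moves nucleosomes and opens chromatin at enhancers, and its gene is often inactivated in cancer. In a layout with both single changes and their combination, each gene has a predicted combined level. When fold changes multiply, the prediction is the siARID1A level times the YTHDF1 KO level divided by the WT level. A gene with a positive interaction was above that prediction in combined cells, a gene with a negative interaction was below it, and a value of 0 means that the fold changes multiplied. The interaction is given on the log2 scale ± its standard error (SE, from 3 libraries per group), and a gene is called where the adjusted p of edgeR's quasi-likelihood test was under 0.05.

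Both targets were reduced where the labels say so. YTHDF1 had 32.2, 30.4 and 30.2 CPM (counts scaled to a common library total after TMM scaling) in combined cells and 26.7, 25.3 and 22.6 CPM in YTHDF1 KO cells, against 98.4, 102 and 92.96 CPM in siARID1A cells and 88.3, 90.7 and 85.6 CPM in WT cells. Its transcript was thus lower but still counted in knockout cells, and its interaction was 0.16 ± 0.09 (adjusted p = 0.316). ARID1A had 46.7, 58.3 and 57.6 CPM in combined cells, against 174, 154 and 153 CPM in YTHDF1 KO cells. In the other background it had 44.9, 40.99 and 41.6 CPM in siARID1A cells, against 168, 176 and 148 CPM in WT cells. ARID1A fell by 1.56 on the log2 scale in the knockout background and by 1.95 in the WT background, a difference of 0.38 ± 0.15 (adjusted p = 0.0278). That call was lost under 9 of 22 alternative analyses, over which its adjusted p was 0.00436 to 0.0972: with scaling by library totals, and without any one of combined replicates 2 and 3, YTHDF1 KO replicates 2 and 3, siARID1A replicates 2 and 3 or WT replicates 1 and 2. Library totals ran from 30220717 to 45042635 counts, and 18524 of 60617 genes were tested. The library of WT replicate 2 stood apart: it had 4.85% of its counts on mitochondrially encoded genes, against 7.90% and 8.23% in the other WT libraries. Over all genes with enough counts, its chi-square per degree of freedom was 50.4 against WT replicate 1 and 48.7 against WT replicate 3. That value was 12.5 between WT replicates 1 and 3, and 3.35 to 12.9 between libraries of any other group. It grows with depth and includes the mitochondrial genes. The marker values in the rest of this paragraph are CPM by library totals alone, without TMM scaling. Summed CPM of 6 epithelial markers was 4086 to 4331 in combined cells and 3596 to 3817 in YTHDF1 KO cells. It was 6805 to 8337 in siARID1A cells and 7822 to 9064 in WT cells, and none of these markers was at 0. Of 25 marker genes of cells other than epithelium (blood, endothelium, stroma and others), 1 was at 0 and 16 were under 1 CPM in all libraries. Summed CPM of those 25 markers was 63.7 to 76.2 in combined cells, 52.9 to 57.7 in YTHDF1 KO cells, 63.7 to 84.6 in siARID1A cells and 44.6 to 73.1 in WT cells. The part of these marker levels in the results below was not tested, and in bulk RNA fewer cells of a type and less RNA per cell cannot be told apart.

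The interaction was called at 3167 genes, 17.1% of those tested. It was positive at 1644 genes (8.87%) and negative at 1523 genes (8.22%), and it passed 1 log2 unit at 355 positive genes (1.92%) and 520 negative genes (2.81%). Over all genes tested its median was 0.02. The single comparisons show where these differences lie: combined cells differed from YTHDF1 KO cells at 4331 genes (23.4%), and siARID1A cells differed from WT cells at 8368 genes (45.2%). Those comparisons use different libraries, so each can be read against the other. Among the 1481 genes (8.0%) up by over 1 log2 unit in siARID1A cells against WT cells, the median change was 1.60 there and 0.63 in the knockout background, where 43.7% were called up. Among the 662 genes (3.57%) down by over 1 in the WT background, the medians were -1.35 there and -0.37 in the knockout background, where 30.7% were called down. Choosing the genes in the knockout background gave a smaller gap. The 624 genes (3.37%) up by over 1 in combined cells against YTHDF1 KO cells had a median of 1.52 there and 1.20 in the WT background, and the 146 genes (0.788%) down by over 1 had medians of -1.26 and -0.99. A median in the background used for choosing is set by the choice.

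Most called interactions were responses to siARID1A that were called in one background and not in the other. Of the 3167 genes, 1802 passed the test for siARID1A in WT cells and not in knockout cells. Of these, 936 fell in the WT background and had a positive interaction, and 866 rose there and had a negative one. Another 745 changed in the same direction in both backgrounds. In 670 of these the change was smaller in the knockout background, and in 75 it was larger. The reverse case, a change in the knockout background only, held for 356 genes, and 201 genes changed in opposite directions. The remaining 63 passed neither test of siARID1A and passed only the test of the difference. These classes describe the genes and are no further test, since the interaction is made from the same libraries.

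**Figure D1:**
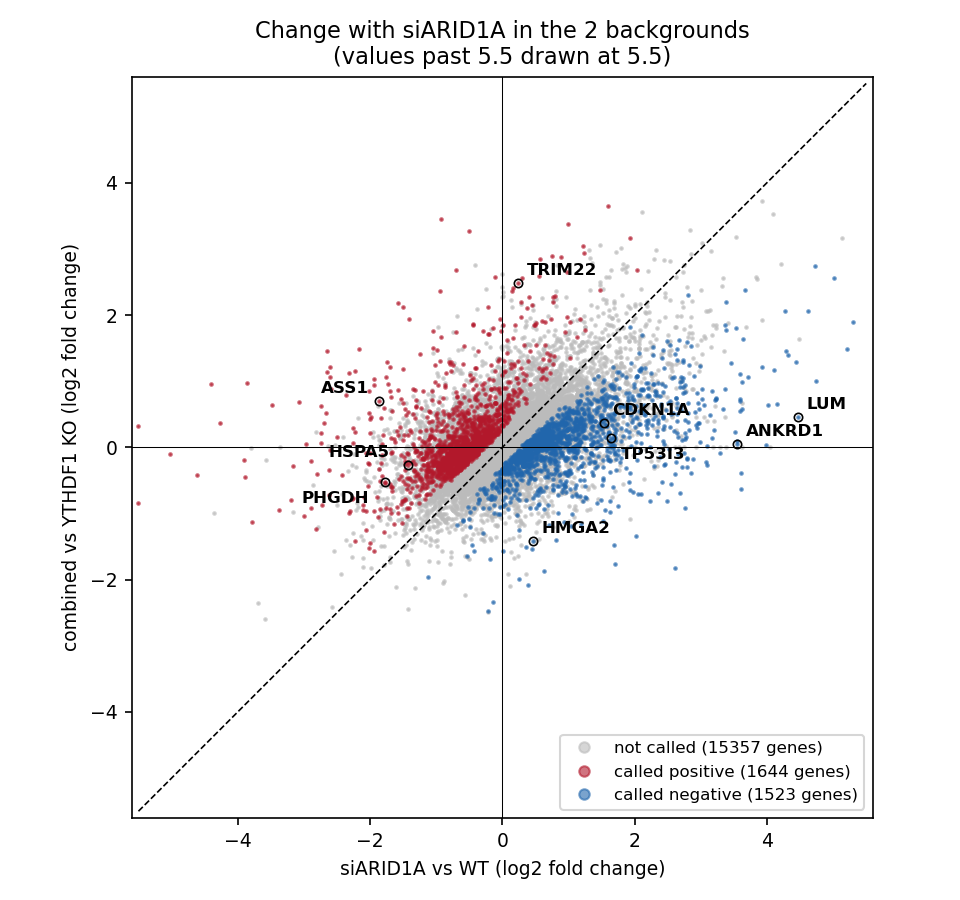
Change with siARID1A in each background for the 18524 genes tested, one point per gene: combined cells against YTHDF1 KO cells on the vertical axis and siARID1A cells against WT cells on the horizontal axis, both as log2 fold change. The dashed line is where both are equal; the 1644 genes called positive lie above it and the 1523 called negative below it, and 9 genes of the text are circled and named. Values past 5.5 are drawn at 5.5.

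Gene lists, which were drawn up with earlier results of these data known, are described by counts and medians beside those of all genes. The largest share of negative calls was in the p53 list and the largest share of positive calls in the list of the integrated stress and unfolded protein response. Lists of replication and mitosis were on the positive side, and those of NF-kB and the extracellular matrix on the negative side. The interferon-stimulated genes had many calls in both directions.

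**Figure D2:**
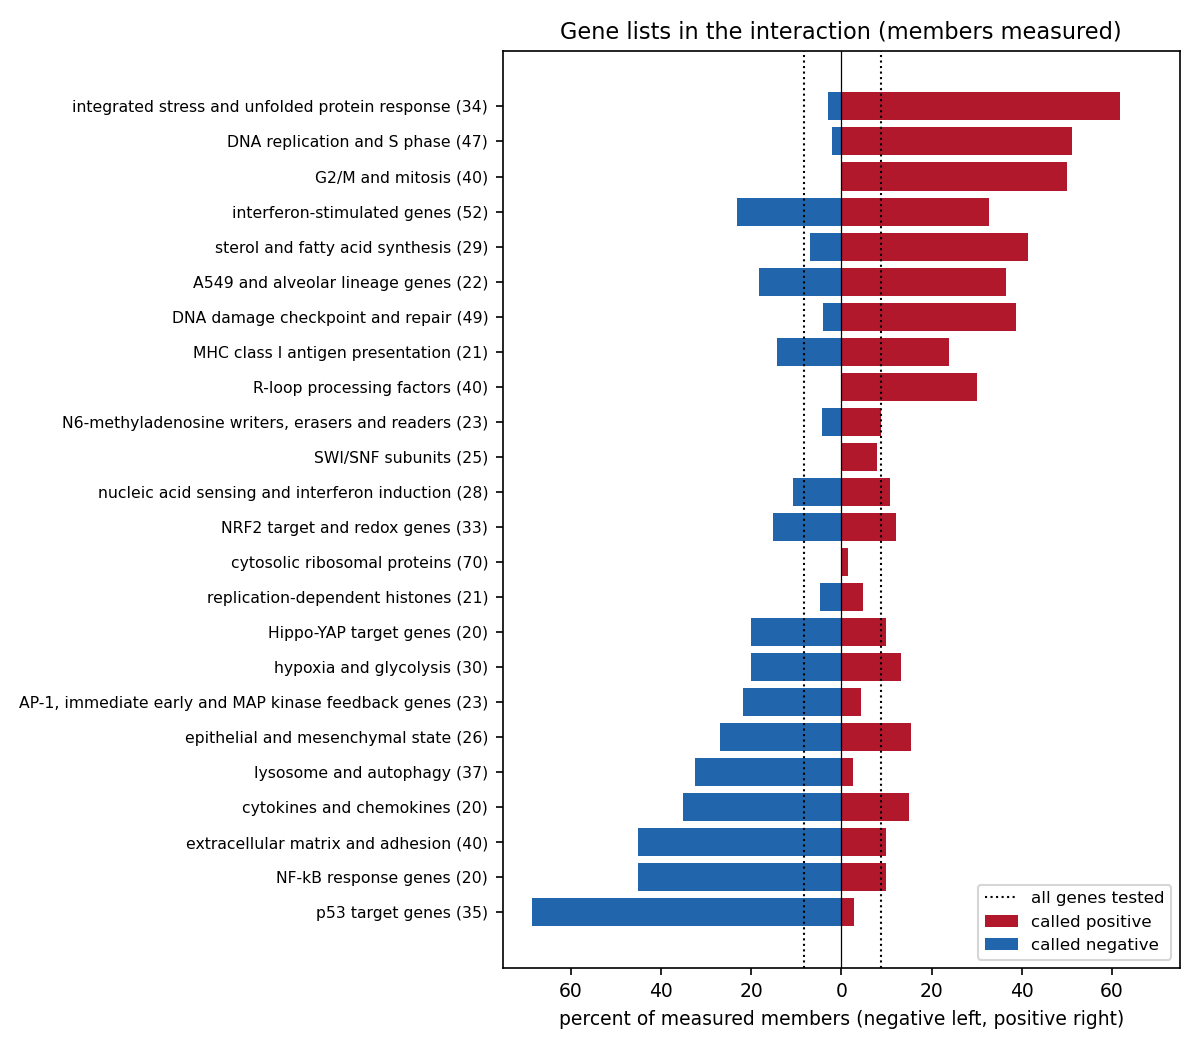
Percent of the measured members of each list with at least 20 measured members that were called negative (to the left) or positive (to the right), with the number measured in parentheses. The dotted lines mark the 8.87% positive and 8.22% negative over all genes tested; the p53 list reaches 68.6% negative and the stress response list 61.8% positive.

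Targets of p53, the transcription factor that stops the cell cycle and promotes cell death after DNA damage, rose with siARID1A in WT cells and less in knockout cells. Of 35 measured p53 targets, 24 were called negative (68.6%, against 8.22% of all genes) and 1 was called positive, and the median interaction was -0.67. The positive one was TRIM22, which is also an interferon-stimulated gene. In the knockout background the test of siARID1A called 18 of the 35 up, against 12.5% of all genes. In the WT background it called 31 up, against 22.1% of all genes. Negative calls numbered 23 to 28 over the 22 alternative analyses.

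CDKN1A encodes p21, an inhibitor of cyclin-dependent kinases, and lies on chromosome 6 (36676460 to 36687339, GRCh38). CDKN1A had 233, 221 and 225 CPM in combined cells, against 175, 176 and 176 CPM in YTHDF1 KO cells. It had 409, 482 and 487 CPM in siARID1A cells, against 159, 156 and 159.6 CPM in WT cells. Every library with ARID1A silenced was above every unsilenced library of its background, and the step was 0.36 log2 units in the knockout background and 1.54 in the WT background. The multiplied prediction for combined cells was 511 CPM, and the interaction was -1.17 ± 0.08 (adjusted p = 6.80e-09).

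TP53I3, a quinone oxidoreductase gene induced by p53, had 87.8, 84.3 and 79.4 CPM in combined cells, against 74.8, 79.2 and 73.6 CPM in YTHDF1 KO cells. In siARID1A cells its level was 244, 268 and 245 CPM, against 93.1, 75.4 and 73.9 CPM in WT cells. The siARID1A libraries stood far above the other 9, the WT libraries overlapped both knockout groups, and the interaction was -1.50 ± 0.13 (adjusted p = 1.37e-09). FDXR, the mitochondrial ferredoxin reductase, showed a step in both backgrounds. Its mean was 96.8 ± 10.7 CPM in combined cells and 71.2 ± 5.396 CPM in YTHDF1 KO cells (SD, n = 3 each), and 178 ± 8.46 CPM in siARID1A cells and 43.4 ± 6.32 CPM in WT cells. The interaction of FDXR was -1.59 ± 0.17 (adjusted p = 8.53e-09). FDXR lies on chromosome 17, in a stretch of 50 neighbouring genes with a median interaction of -0.43. It kept its call when chromosomes were scaled separately. PHLDA3, a repressor of AKT signalling, had an interaction of -0.96 ± 0.10 (adjusted p = 2.21e-07) from changes of 0.39 in the knockout background and 1.36 in the WT background. The other negative calls of the list reached from -0.47 for DDB2 to -1.71 for GDF15, and included MDM2, the p53 ubiquitin ligase, at -0.94. The 10 members without a call ranged from -1.03 for TNFRSF10C to 0.30 for NINJ1.

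Genes of the integrated stress response, which adjusts amino acid metabolism and translation, and of the unfolded protein response, which supplies chaperones to the endoplasmic reticulum, fell with siARID1A in WT cells and less in knockout cells. Of 34 measured genes, 21 were called positive (61.8%, against 8.87% of all genes) and 1, EDEM1, was called negative, with a median interaction of 0.62. The test of siARID1A called 17 down in the knockout background, against 10.9% of all genes, and 26 down in the WT background, against 23.0% of all genes. Positive calls numbered 16 to 22 over the alternative analyses, and the call of EDEM1 (-0.28) was lost without any one library other than siARID1A replicate 2, WT replicate 2 or WT replicate 3.

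HSPA5 encodes BiP, the main chaperone of the endoplasmic reticulum. HSPA5 had 1154, 1266 and 1210.2 CPM in combined cells, against 1387, 1530.0 and 1452 CPM in YTHDF1 KO cells. Its level was 746, 736 and 724 CPM in siARID1A cells, against 1936, 1978 and 2027 CPM in WT cells. The WT libraries were highest, the siARID1A libraries lowest, and no libraries of different groups overlapped. The interaction was 1.16 ± 0.06 (adjusted p = 1.38e-08), with a multiplied prediction of 541 CPM.

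PHGDH, the first enzyme of serine synthesis, had 89.6, 96.3 and 83.2 CPM in combined cells, against 121, 134 and 130.2 CPM in YTHDF1 KO cells. It had 58.1, 49.2 and 49.9 CPM in siARID1A cells, against 180.1, 158 and 199 CPM in WT cells. The order of the groups was that of HSPA5, without overlap, and the interaction was 1.25 ± 0.14 (adjusted p = 4.63e-08). PSAT1, the next enzyme of that pathway, had an interaction of 1.14 ± 0.11 (adjusted p = 4.63e-08), with changes of -0.75 in the knockout background and -1.89 in the WT background. VLDLR, a lipoprotein receptor gene, had overlapping libraries in 3 of the groups. It averaged 28.4 ± 0.687 CPM in combined cells, 28.4 ± 0.708 CPM in YTHDF1 KO cells and 32.03 ± 2.92 CPM in siARID1A cells, against 81.2 ± 4.12 CPM in WT cells (SD, n = 3 each), an interaction of 1.34 ± 0.09 (adjusted p = 5.99e-09). HSPA5, PSAT1 and VLDLR lie on chromosome 9, whose genes were shifted together, and all kept their calls when chromosomes were scaled separately. Further chaperone genes of the list with calls were HSP90B1 (0.71), PDIA4 (0.76), DNAJB11 (0.73) and HYOU1 (0.66), and XBP1, a transcription factor of the unfolded protein response, had 0.81. DDIT3, the factor CHOP, was not called at -0.43.

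Promoters of the chaperone genes are known for the ER stress element, CCAAT, any 9 bases, then CCACG, and that motif was sought on both strands in the 250 bases before each RefSeq start site (GRCh38.p14); it was chosen after these values had been seen. It was in 4 of 30 list members with a promoter in the table, all of them among the 20 called positive, and in 14 of 12342 tested genes (0.113%). The 200 bases before the start are shown for 3 of the genes as the clearest cases, read 5′ to 3′ on the gene's strand, with the element in capitals. HSP90B1 holds it once on each strand and CRELD2 on the opposite strand, where it reads CGTGG first. The regions are HSPA5 (chr9:125241344-125241543, minus strand), HSP90B1 (chr12:103930210-103930409, plus strand) and CRELD2 (chr22:49918434-49918633, plus strand).
HSPA5: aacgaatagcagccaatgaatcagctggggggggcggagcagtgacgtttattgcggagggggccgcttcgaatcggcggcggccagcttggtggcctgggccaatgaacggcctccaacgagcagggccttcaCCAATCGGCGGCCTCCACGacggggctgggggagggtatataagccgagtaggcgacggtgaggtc
HSP90B1: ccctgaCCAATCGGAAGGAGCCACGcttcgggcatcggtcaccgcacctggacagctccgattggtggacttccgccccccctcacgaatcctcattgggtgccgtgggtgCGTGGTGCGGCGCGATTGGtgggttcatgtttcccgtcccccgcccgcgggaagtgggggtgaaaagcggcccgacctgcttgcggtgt
CRELD2: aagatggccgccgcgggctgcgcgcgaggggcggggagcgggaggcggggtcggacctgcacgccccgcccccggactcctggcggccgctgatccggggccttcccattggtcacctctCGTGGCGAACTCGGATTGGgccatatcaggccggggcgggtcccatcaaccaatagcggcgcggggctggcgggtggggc
A match is a description of the sequence and does not show binding.

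**Figure D3:**
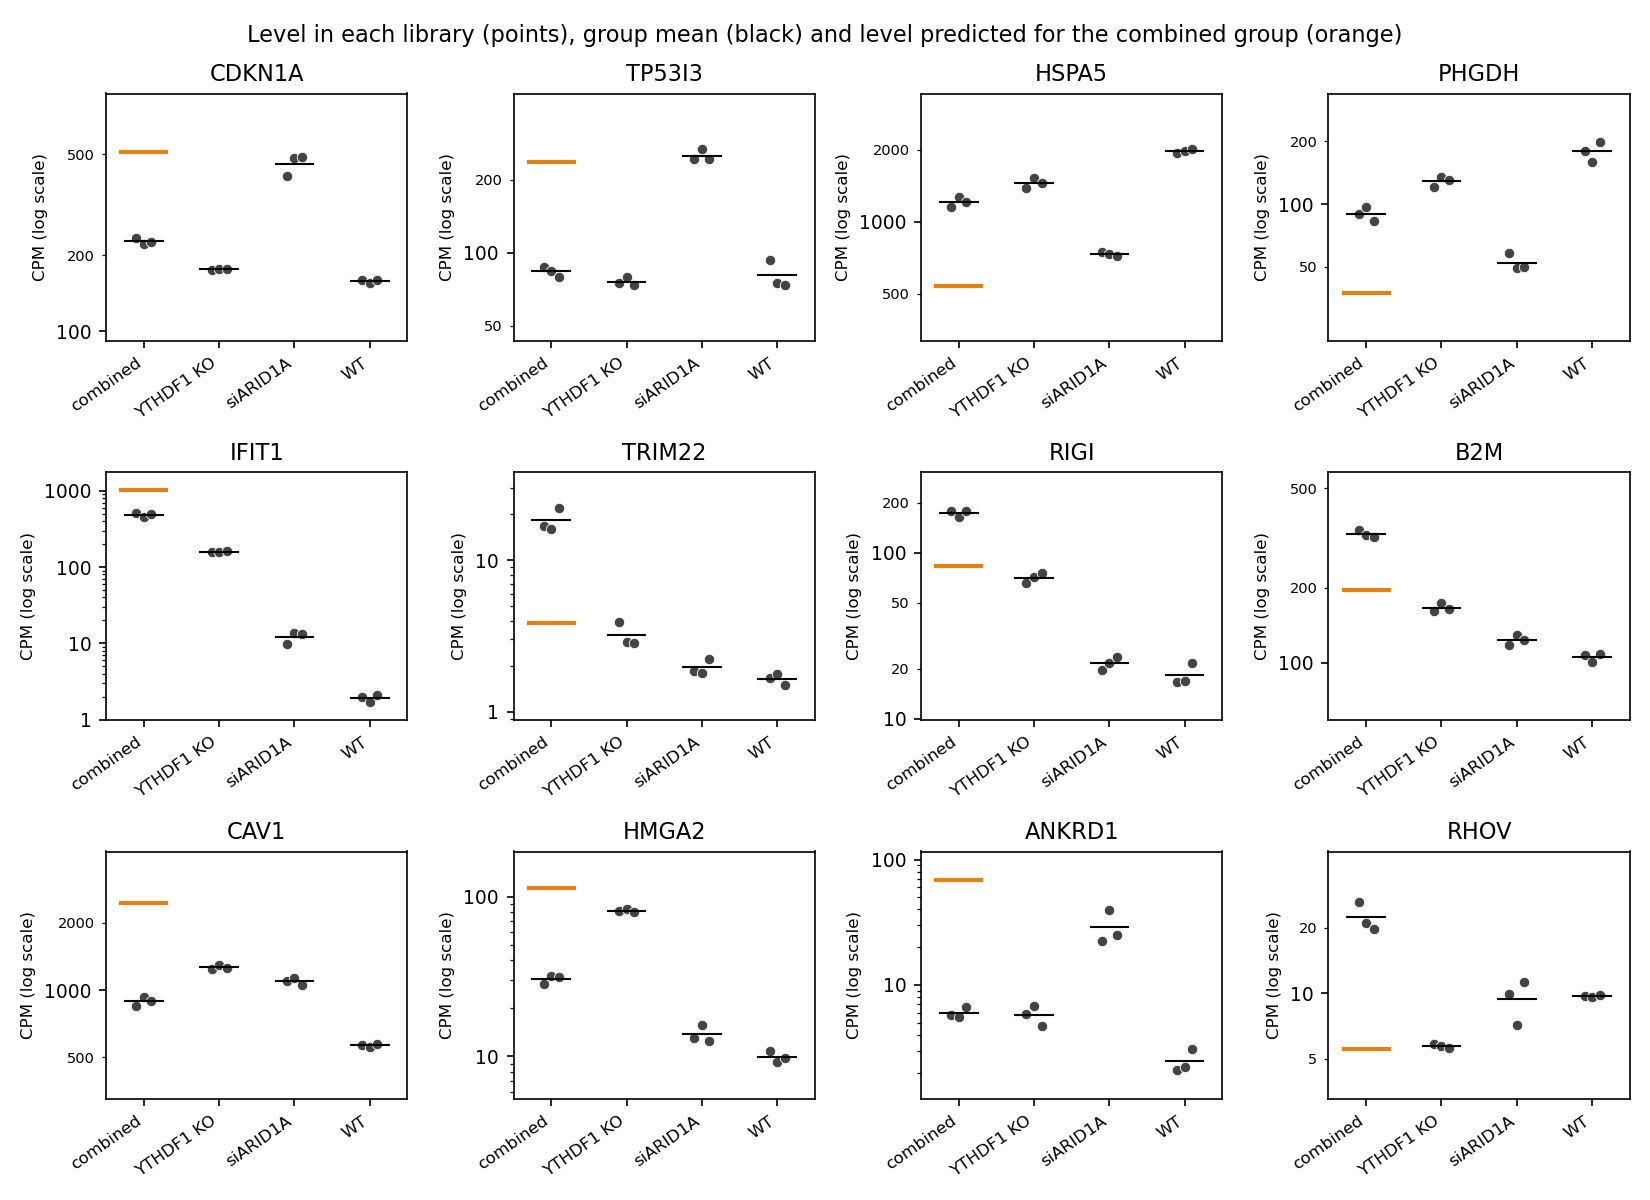
Level of 12 genes in each library on a log axis of CPM, with groups from combined to WT cells; points are libraries, black lines group means and the orange line the combined level predicted when fold changes multiply. CDKN1A, TP53I3, IFIT1, CAV1, HMGA2 and ANKRD1 lie below the prediction in combined cells, and HSPA5, PHGDH, TRIM22, RIGI, B2M and RHOV above it.

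Genes of DNA replication, mitosis and repair also fell with siARID1A more in the WT background. In the S phase list, 24 of 47 measured genes were called positive (51.1%, against 8.87% of all genes) and 1 negative, with a median of 0.37. With siARID1A, 11 of the 47 fell in the knockout background, against 10.9% of all genes, and 39 fell in the WT background, against 23.0% of all genes. The G2/M list had 20 of 40 called positive by edgeR (against 8.87% of all genes), 20 by limma-trend and 19 by DESeq2, with a median of 0.35. None was called negative by these tools, and 0 were negative at an unadjusted p under 0.05. The edgeR count of positive calls fell from 20 to 10 without combined replicate 2. It fell to 12 without either YTHDF1 KO replicate 1 or siARID1A replicate 3. With siARID1A, 22 of the 40 fell in the knockout background and 38 fell in the WT background, against the same 10.9% and 23.0% of all genes.

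RFC3, a subunit of the clamp loader at the replication fork, had 51.2, 54.4 and 52.4 CPM in combined cells, against 52.3, 58.2 and 51.3 CPM in YTHDF1 KO cells. It had 36.96, 38.7 and 37.6 CPM in siARID1A cells, against 68.9, 77.9 and 74.4 CPM in WT cells. The knockout groups overlapped and lay between the others, and the interaction was 0.93 ± 0.08 (adjusted p = 5.18e-07). MCM6, part of the replicative helicase, was high in WT cells alone: its mean was 110.3 ± 3.22 CPM in combined cells, 109.5 ± 3.63 CPM in YTHDF1 KO cells, 109.7 ± 12.5 CPM in siARID1A cells and 182 ± 19.8 CPM in WT cells (SD, n = 3 each). The interaction of MCM6 was 0.74 ± 0.13 (adjusted p = 5.09e-05), and that of MCM5 0.62 ± 0.12 (adjusted p = 0.000244). CCNE1, cyclin E1, was the negative member at -0.74 ± 0.12 (adjusted p = 0.000128). Among mitotic genes, the spindle factor ASPM had 0.83 ± 0.20, the condensin subunit NCAPG 0.64 ± 0.13, the checkpoint kinase BUB1B 0.62 ± 0.13 and the spindle-associated DLGAP5 0.56 ± 0.09, with adjusted p of 0.000725, 0.000422, 0.000452 and 0.000358.

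The series names R-loops, hybrids of RNA with template DNA, in its title, and factors that process them were positive where they were called. Of 40 measured R-loop factors, 12 were called positive (30%, against 8.87%), with a median of 0.20 and 9 to 14 positive calls over the alternatives. None was called negative by edgeR, limma-trend or DESeq2, and 1 was negative at an unadjusted p under 0.05 in edgeR. The DNA damage and repair list had 19 of 49 positive (38.8%, against 8.87%) and 2 negative, RAD51C and RAD52, with a median of 0.31. The negative count was 1 without any one of combined replicate 2, YTHDF1 KO replicate 1 or siARID1A replicate 1. FANCD2, a Fanconi anaemia protein that acts at stalled forks, had 46.6, 49.5 and 48.4 CPM in combined cells, against 55.2, 52.3 and 55.5 CPM in YTHDF1 KO cells. Its level was 46.9, 43.7 and 37.4 CPM in siARID1A cells, against 77.5, 80.8 and 74.7 CPM in WT cells, and the interaction was 0.69 ± 0.11 (adjusted p = 7.01e-05). BRCA2, a protein of homologous recombination, had 24.5, 27.2 and 29.8 CPM in combined cells, against 30.1, 25.8 and 29.4 CPM in YTHDF1 KO cells. It had 15.2, 15.6 and 17.1 CPM in siARID1A cells, against 28.8, 36.99 and 28.5 CPM in WT cells. For BRCA2 the siARID1A libraries were below all others, which overlapped, and the interaction was 0.91 ± 0.17 (adjusted p = 0.000104). The helicase BLM had 0.65 ± 0.16 (adjusted p = 0.00129). In the repair list the calls with the smallest p were POLQ (0.70 ± 0.19), XRCC3 (0.65 ± 0.12), FANCI (0.50 ± 0.13) and BARD1 (0.65 ± 0.13), with adjusted p of 0.00107, 0.000863, 0.0023 and 0.00237.

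Interferon-stimulated genes, the effectors of the antiviral response, were highest in combined cells in nearly all cases, while their position against the prediction depended on the scale. Of 52 measured genes, 50 had their highest group mean in combined cells; GBP2 and TRIM25 were the others. The test called 50 up in combined cells against YTHDF1 KO cells, where 12.5% of all genes were up. It called 37 up in siARID1A cells against WT cells, where 22.1% of all genes were up. On the log2 scale, 17 were called positive (32.7%, against 8.87%) and 12 negative (23.1%, against 8.22%), with a median of 0.33. Of the 17 positive genes, 9 had no call for siARID1A in WT cells. All 12 negative genes rose with siARID1A in both backgrounds. When changes in CPM are added instead of multiplied, the prediction is the siARID1A level plus the YTHDF1 KO level minus the WT level. Combined cells were above it at 50 of the 52 genes, including 11 of the 12 negative genes. For genes raised by both single changes the added prediction is always below the multiplied one. Those above the multiplied prediction are then above both, so the count of 50 is partly fixed by arithmetic.

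TRIM22, an antiviral ubiquitin ligase gene, had 16.8, 15.9 and 22.2 CPM in combined cells, against 3.901, 2.903 and 2.86 CPM in YTHDF1 KO cells. It had 1.87, 1.82 and 2.25 CPM in siARID1A cells, against 1.67, 1.79 and 1.51 CPM in WT cells. No groups overlapped, the gap between siARID1A and WT cells was narrow and not called (adjusted p = 0.331), and the interaction was 2.24 ± 0.24 (adjusted p = 7.58e-07). RIGI, the RIG-I sensor of viral RNA, had 179, 164 and 179 CPM in combined cells, against 65.3, 71.1 and 75.3 CPM in YTHDF1 KO cells. Its level was 19.6, 21.6 and 23.5 CPM in siARID1A cells, against 16.7, 16.8 and 21.5 CPM in WT cells, and these 2 groups overlapped. The multiplied prediction was 82.9 CPM and the interaction 1.06 ± 0.16 (adjusted p = 1.60e-06). PLSCR1, a phospholipid scramblase induced by interferon, had 159, 147 and 158 CPM in combined cells, against 68.1, 63.3 and 66.7 CPM in YTHDF1 KO cells. It had 46.1, 41.4 and 49.3 CPM in siARID1A cells, against 39.1, 39.1 and 43.6 CPM in WT cells, and the interaction was 1.06 ± 0.10 (adjusted p = 9.35e-08).

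IFIT1, which binds viral RNA, took opposite directions on the 2 scales. IFIT1 had 511, 458 and 492 CPM in combined cells, against 159, 157 and 161 CPM in YTHDF1 KO cells. It had 9.85, 13.5 and 13.4 CPM in siARID1A cells, against 1.95, 1.68 and 2.07 CPM in WT cells. The fold with siARID1A was 1.62 log2 units in the knockout background and 2.66 in the WT background, so the interaction was -1.05 ± 0.18 (adjusted p = 1.36e-05), whereas the gain in CPM was larger in the knockout background and combined cells lay 318 CPM above the added prediction. IFI6, a mitochondrial protein gene of the same response, had the same pattern. It averaged 433 ± 19.5 CPM in combined cells, 169 ± 4.75 CPM in YTHDF1 KO cells, 17.9995 ± 1.19 CPM in siARID1A cells and 3.33 ± 0.4803 CPM in WT cells (SD, n = 3 each). Its interaction was -1.05 ± 0.14 (adjusted p = 6.97e-07), and combined cells were 249 CPM above the added prediction. LGALS3BP, a secreted glycoprotein gene on chromosome 17, had the negative call with the smallest p, -1.77 ± 0.08 (adjusted p = 1.16e-11). OASL and IRF7 were close to the multiplied prediction: the 95% limma interval of the interaction was -0.27 to 0.43 for OASL and -0.43 to 0.43 for IRF7. OASL, an enzyme-like antiviral protein gene, had 299.8, 268 and 266 CPM in combined cells, against 106, 103 and 98.1 CPM in YTHDF1 KO cells. Its level was 2.18, 2.44 and 2.54 CPM in siARID1A cells, against 0.8497, 0.752 and 1.13 CPM in WT cells. ISG15, a ubiquitin-like modifier, was not called at 0.28 ± 0.26 (adjusted p = 0.319).

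**Figure D4:**
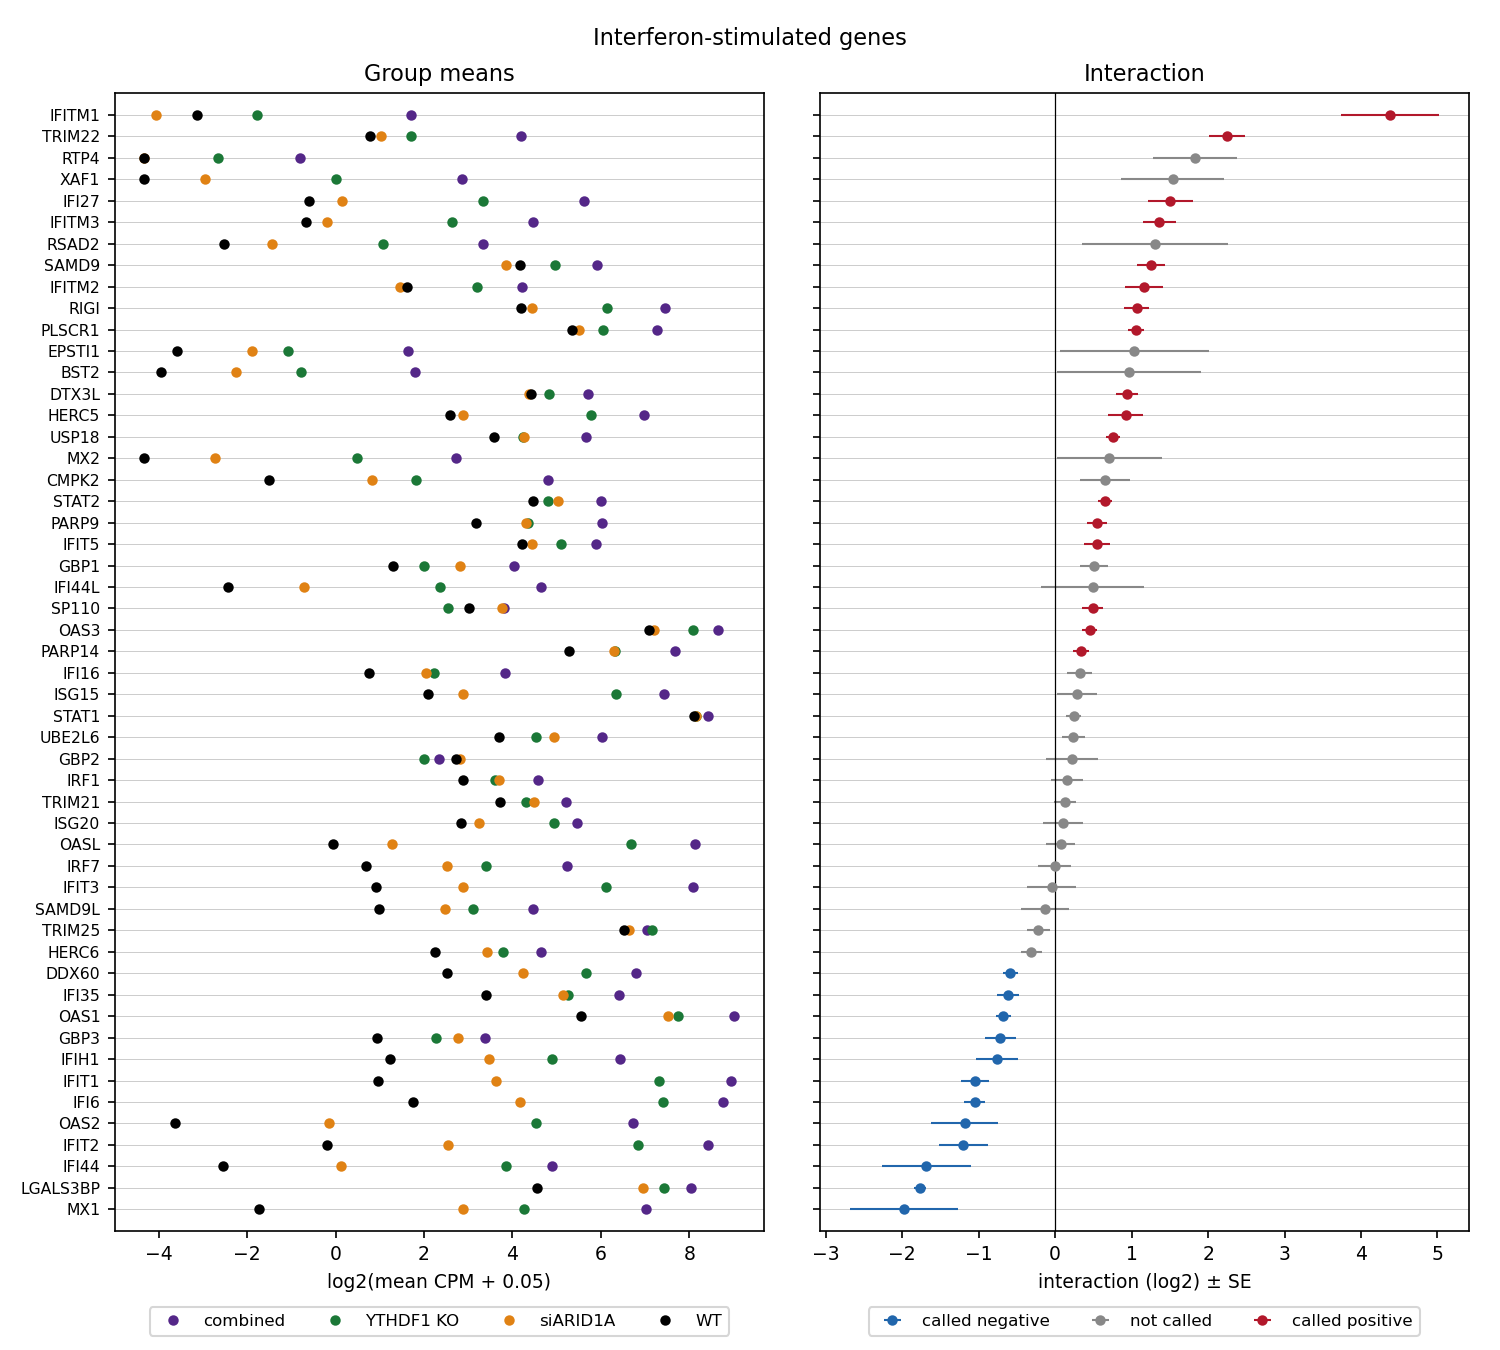
Group means (left, log2 of mean CPM plus a small constant) and interaction ± SE (right, log2) of the 52 measured interferon-stimulated genes, ordered by interaction. Combined cells have the highest mean for 50 genes, while the interaction is called positive for 17 and negative for 12; values of genes with few or no WT counts depend on the prior count of 2.

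The interferon response element was present in promoters of members from both directions. The core of the interferon response element, GAAA, any 2 bases, then GAAA, was sought on both strands in the 250 bases before the start. It was in 23 of 42 list members with a promoter in the table, against 295 of 12342 tested genes (2.39%). Members called positive held it in 9 of 14 cases, members called negative in 6 of 10 and members without a call in 8 of 18. Of genes outside and inside the list together, 3.21% of all genes called positive and 2.02% of all genes called negative held it. The 200 bases before the start are shown, motif in capitals, for PLSCR1 (chr3:146544608-146544807, minus strand) with a positive call, for B2M (chr15:44711317-44711516, plus strand), which is called positive and belongs to the MHC class I list only, and for IFIT1 (chr10:89392423-89392622, plus strand) and IFI6 (chr1:27672193-27672392, minus strand) with negative calls.
PLSCR1: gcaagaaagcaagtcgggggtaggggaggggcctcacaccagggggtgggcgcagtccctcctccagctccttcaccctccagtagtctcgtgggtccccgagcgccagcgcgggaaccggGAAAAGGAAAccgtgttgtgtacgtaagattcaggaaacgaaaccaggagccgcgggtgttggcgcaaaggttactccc
B2M: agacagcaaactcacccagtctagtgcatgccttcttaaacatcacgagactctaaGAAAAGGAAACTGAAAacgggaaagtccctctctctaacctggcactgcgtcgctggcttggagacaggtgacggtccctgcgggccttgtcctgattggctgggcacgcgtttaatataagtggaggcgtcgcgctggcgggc
IFIT1: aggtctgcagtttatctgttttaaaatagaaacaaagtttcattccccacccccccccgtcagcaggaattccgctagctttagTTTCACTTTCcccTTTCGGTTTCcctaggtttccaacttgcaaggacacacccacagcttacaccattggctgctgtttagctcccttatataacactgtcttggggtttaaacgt
IFI6: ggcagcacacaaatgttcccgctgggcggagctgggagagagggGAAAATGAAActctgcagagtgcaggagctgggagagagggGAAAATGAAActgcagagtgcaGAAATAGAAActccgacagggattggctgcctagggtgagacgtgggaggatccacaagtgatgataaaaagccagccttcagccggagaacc
In IFIT1 the motif is on the opposite strand and reads TTTC first; in B2M the capitals are overlapping matches.

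Upstream of these genes, interferon beta itself was counted only in cells with YTHDF1 knocked out. IFNB1 had 609 counts over the combined libraries (6.56, 4.92 and 4.79 CPM), against 96 counts over the YTHDF1 KO libraries (0.628, 1.02 and 0.842 CPM). It had 0 counts in every siARID1A and every WT library, where a count of 0 allows up to 3 counts per library by counting error. IFNB1 rose with siARID1A in the knockout background by 2.63 log2 units (adjusted p = 4.80e-07), and no change can be formed in the WT background, so it has no interaction value. No prediction is given for CXCL10 either, a chemokine that attracts T cells, with 1190 counts over combined libraries, 515 over YTHDF1 KO libraries, 8 over siARID1A libraries and 0 over WT libraries. CCL5, another such chemokine, had 156, 134 and 122 CPM in combined cells, against 44.7, 45.96 and 43.9 CPM in YTHDF1 KO cells. It had 24 counts over the siARID1A libraries and 2 over the WT libraries, and its interaction was not called (adjusted p = 0.0968).

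Of 28 measured genes of nucleic acid sensing and interferon induction, 3 were called positive and 3 negative, near the share of all genes. CGAS, the sensor of cytosolic DNA, had 10 counts over the combined libraries and 12 over YTHDF1 KO libraries, against 58 over siARID1A libraries and 4 over WT libraries. Its negative call (adjusted p = 0.048) rests on these few counts and was lost in 14 of 22 alternatives, among them without any one library other than YTHDF1 KO replicate 2 or WT replicate 1. STING1, the adaptor that CGAS activates, rose with siARID1A in both backgrounds. It had 4.96, 3.61 and 4.23 CPM in combined cells, against 1.68, 1.35 and 1.095 CPM in YTHDF1 KO cells, and 0.967, 1.07 and 1.01 CPM in siARID1A cells, against 0.09996, 0.486 and 0.4398 CPM in WT cells. The interaction of STING1 was 0.16 ± 0.62, with a 95% interval of -1.07 to 1.02. IFIH1, the sensor MDA5, was called negative at -0.76 ± 0.28 (adjusted p = 0.00379) and lay above the added prediction. TICAM1, the adaptor of the receptor TLR3, was called negative at -0.69 ± 0.05 (adjusted p = 0.000401), with 18.1 CPM in combined cells, 17.9 in YTHDF1 KO cells, 19.99 in siARID1A cells and 12.2 in WT cells as group means. SAMHD1, another member of the same list, was called positive at 0.53 ± 0.10 (adjusted p = 0.00305).

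MHC class I genes, which present peptides to T cells, had 5 positive calls (23.8%, against 8.87% of all genes) and 3 negative calls (14.3%, against 8.22%) among 21 measured. B2M, the shared light chain, had 341, 325 and 319.7 CPM in combined cells, against 161, 175 and 164 CPM in YTHDF1 KO cells. It had 118, 129.5 and 124 CPM in siARID1A cells, against 108, 100.5 and 108 CPM in WT cells. All groups were separate and combined cells were highest, with a multiplied prediction of 195 CPM and an interaction of 0.75 ± 0.07 (adjusted p = 2.67e-06). NLRC5, the transcriptional activator of MHC class I, had 23.6, 25.02 and 26.5 CPM in combined cells, against 7.803, 6.73 and 6.32 CPM in YTHDF1 KO cells. Its level was 6.497, 5.39 and 5.06 CPM in siARID1A cells, against 6.12, 4.799 and 3.83 CPM in WT cells, and the interaction was 1.65 ± 0.24 (adjusted p = 2.67e-06). PSMB9, a subunit of the immunoproteasome, was negative at -1.05 ± 0.22 (adjusted p = 0.000235). The 3 negative calls fell to 1 without any one of combined replicate 2, YTHDF1 KO replicate 2, siARID1A replicate 3 or WT replicate 3. CD274, the checkpoint ligand PD-L1, had 3.11, 3.92 and 3.68 CPM in combined cells, against 1.94, 1.89 and 2.36 CPM in YTHDF1 KO cells. It had 1.27, 1.69 and 1.15 CPM in siARID1A cells, against 0.5998, 0.663 and 0.754 CPM in WT cells, and the interaction was not called at -0.20 ± 0.23 (95% interval -0.88 to 0.51).

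NF-kB response genes, which limit or carry inflammatory signalling, rose with siARID1A mainly in the WT background. Of 20 measured, 9 were called negative (45%, against 8.22% of all genes) and 2 positive (against 8.87%), with a median of -0.46. In the knockout background 4 rose and 4 fell with siARID1A, against 12.5% and 10.9% of all genes. In the WT background 11 rose and 2 fell, against 22.1% and 23.0% of all genes. NFKB2, a precursor of the alternative pathway, had 246, 206 and 235 CPM in combined cells, against 167, 167 and 157 CPM in YTHDF1 KO cells. It had 214, 275 and 219 CPM in siARID1A cells, against 79.7, 77.9 and 76.6 CPM in WT cells. Combined and siARID1A libraries overlapped at the top, and the interaction was -1.11 ± 0.14 (adjusted p = 2.56e-07). NFKBIE, an inhibitor of NF-kB, had -1.51 ± 0.24 (adjusted p = 4.62e-06), and RELB, an NF-kB subunit, had -0.96 ± 0.18 (adjusted p = 4.02e-05). Cytokines and chemokines had 7 negative and 3 positive calls among 20, against the same shares of all genes. CXCL5, which attracts neutrophils, had 644, 611 and 619 CPM in combined cells, against 763, 787 and 772 CPM in YTHDF1 KO cells. Its level was 197, 239.8 and 230.4 CPM in siARID1A cells, against 79.1, 103 and 119.7 CPM in WT cells. CXCL5 thus fell with siARID1A in the knockout background and rose in the WT background, an interaction of -1.45 ± 0.20 (adjusted p = 4.72e-07). CCL2, which attracts monocytes, fell with siARID1A in the knockout background (-0.99) and was not called in the WT background (-0.12), an interaction of -0.87 ± 0.15. IL11 was on the positive side at 1.16 ± 0.18 and IL18 on the negative side at -0.64 ± 0.09.

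Among called genes whose 4 group levels averaged 10 CPM or more and whose libraries summed to 10 counts or more in every group, the most negative interactions included ANKRD1, FGFBP1, MYPN, PTGS2, FA2H, the carboxypeptidase M gene, OXTR, FOSL1 and RERG, from -3.50 to -2.02. All 9 of these were called up in each single change; 22.1% of all genes were so for siARID1A and 19.6% for YTHDF1 knockout, but the choice by interaction, which contains both single changes, favours this pattern. In 8 of them siARID1A cells had the highest mean; the exception was PTGS2, highest in combined cells. ANKRD1, a nuclear and sarcomeric ankyrin protein known as a target of the coactivator YAP, had 5.77, 5.603 and 6.63 CPM in combined cells, against 5.84, 6.77 and 4.72 CPM in YTHDF1 KO cells. It had 22.4, 39.8 and 25.1 CPM in siARID1A cells, against 2.099, 2.21 and 3.08 CPM in WT cells. The groups with YTHDF1 knocked out overlapped, and the interaction was -3.50 ± 0.35 (adjusted p = 7.84e-08). PTGS2, the inducible cyclo-oxygenase, had 510.1, 402 and 461 CPM in combined cells, against 165, 166 and 170.3 CPM in YTHDF1 KO cells. Its level was 237, 191 and 344 CPM in siARID1A cells, against 10.6, 12.5 and 16.4 CPM in WT cells. Combined cells had the highest level of PTGS2 and still lay far below the multiplied prediction of 3264 CPM (-2.84 ± 0.32, adjusted p = 8.76e-05), while their mean differed from the added prediction of 411 CPM by less than 1 SE (46.4 ± 55.0 CPM).

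The matrix and adhesion list held 18 negative and 4 positive calls among 40 measured genes, against 8.22% and 8.87% of all genes, with a median of -0.37 against 0.02 over all genes. The positive count was 7 without combined replicate 1. LUM, the collagen-binding proteoglycan lumican, had 8.88, 9.94 and 8.27 CPM in combined cells, against 6.15, 6.89 and 6.68 CPM in YTHDF1 KO cells. It had 3.57, 2.57 and 2.96 CPM in siARID1A cells, against 0.09996, 0.0885 and 0.0628 CPM in WT cells. With 10 counts over the WT libraries, its interaction of -4.02 ± 0.20 (adjusted p = 1.48e-09) depends on few WT counts. The SE is from log2 values with a prior count of 2, which damps the spread at such counts, so it is too small here. COL4A5, a basement membrane collagen, had -1.44 ± 0.14 (adjusted p = 6.23e-08), and LAMB3, the beta 3 chain of laminin 332, -0.88 ± 0.04 (adjusted p = 2.56e-07). Of the AP-1 and MAP kinase feedback genes, 5 of 23 were negative (21.7%, against 8.22%), and FOSL1, the AP-1 subunit FRA-1, was the lowest at -2.07 ± 0.31 (adjusted p = 0.000661). FOSL1 had 44.6, 30.9 and 39.4 CPM in combined cells, against 55.2, 61.8 and 53.4 CPM in YTHDF1 KO cells, and 83.02, 143 and 91.9 CPM in siARID1A cells, against 42.9, 33.97 and 35.4 CPM in WT cells. JUN, another AP-1 subunit, was called at -0.70 ± 0.17 (adjusted p = 0.000601). The AP-1 motif TGACTCA, sought on both strands in the 250 bases before the start, was in 5.18% of the 1140 negative genes with a promoter in the table, in 1.69% of the 1246 positive ones and in 2.80% of all 12342 tested.

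The most positive interactions under the same conditions included FER1L6, PKDCC, NTRK3, ASS1, TINAGL1, IQGAP2, RHOV and SAMD11, from 8.33 to 1.93. In 7 of these 8 genes WT cells had the highest mean and each single change was called down, a pattern that the choice likewise favours (23.0% of all genes were down for siARID1A and 20.8% for YTHDF1 knockout). FER1L6, a ferlin family gene on chromosome 8, had 0.0941, 0.281 and 0.353 CPM in combined cells, 0.105, 0.194 and 0.281 CPM in YTHDF1 KO cells and 0.302, 0.188 and 0.325 CPM in siARID1A cells, against 81.7, 83.1 and 87.1 CPM in WT cells. It was all but lost in each of the 3 changed groups, and its interaction of 8.33 ± 0.58 (adjusted p = 1.91e-10) depends on the prior count. ASS1, the arginine synthesis enzyme argininosuccinate synthase, had 9.44, 9.75 and 10.8 CPM in combined cells, against 6.68, 6.58 and 5.17 CPM in YTHDF1 KO cells. Its level was 10.03, 8.398 and 10.4 CPM in siARID1A cells, against 38.5, 28.3 and 38.8 CPM in WT cells, an interaction of 2.56 ± 0.22 (adjusted p = 8.46e-10); it lies on chromosome 9. NTRK3, the receptor of neurotrophin 3, had 2.80 ± 0.46 (adjusted p = 0.00225), and its level was 38.98, 21.8 and 39.4 CPM in siARID1A cells, against 219, 252 and 200.3 CPM in WT cells, with group means of 1.87 CPM in combined cells and 1.81 CPM in YTHDF1 KO cells.

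RHOV was of another kind, with its highest level in combined cells. RHOV, a small GTPase gene, had 26.3, 20.98 and 19.7 CPM in combined cells, against 5.87, 5.73 and 5.62 CPM in YTHDF1 KO cells. Its level was 9.88, 7.14 and 11.3 CPM in siARID1A cells, against 9.696, 9.62 and 9.83 CPM in WT cells, which overlapped, and the interaction was 1.99 ± 0.23 (adjusted p = 1.06e-07). The sterol and fatty acid synthesis list had 12 positive (41.4%, against 8.87% of all genes) and 2 negative calls among 29, with a median of 0.33. SCD, the stearoyl-CoA desaturase, had 2415, 2922 and 2749 CPM in combined cells, against 2058, 1996 and 2100.4 CPM in YTHDF1 KO cells. It had 1287, 1005 and 1279.8 CPM in siARID1A cells, against 1456, 1459 and 1565 CPM in WT cells, an interaction of 0.72 ± 0.15 (adjusted p = 0.000264). HMGCS1, an early enzyme of cholesterol synthesis, was negative at -0.60 ± 0.10 (adjusted p = 0.000152).

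In 201 genes siARID1A was called in opposite directions in the 2 backgrounds. CAV1, the coat protein of caveolae, had 847, 930.3 and 895 CPM in combined cells, against 1248, 1288 and 1257 CPM in YTHDF1 KO cells. It had 1094, 1135 and 1056 CPM in siARID1A cells, against 568, 554 and 573 CPM in WT cells. Each single change raised CAV1, and the combination was below both and above WT, with an interaction of -1.46 ± 0.05 (adjusted p = 2.78e-10). HMGA2, an architectural chromatin protein of embryonic and tumour cells, had 28.2, 31.8 and 31.4 CPM in combined cells, against 81.6, 83.7 and 79.6 CPM in YTHDF1 KO cells. Its level was 13.1, 15.7 and 12.4 CPM in siARID1A cells, against 10.9, 9.22 and 9.77 CPM in WT cells. HMGA2 was thus highest in YTHDF1 KO cells; siARID1A lowered it in that background and raised it in the WT background (-1.88 ± 0.14, adjusted p = 5.22e-10). CLU, the secreted chaperone clusterin, had an interaction of -1.46 ± 0.07 (adjusted p = 5.20e-10) from changes of -0.56 in the knockout background and 0.90 in the WT background. SCARA3, a scavenger receptor family gene, had -1.47 ± 0.10 (adjusted p = 5.22e-10) from -0.28 and 1.19 in the same order.

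Many genes could be placed near the multiplied prediction. The 95% limma interval lay within 0.5 log2 units of 0 at 5592 of 18524 genes (30.2%), and at 1137 of the 4536 genes called in both single changes (25.1%). Among genes changed in the same direction by both, TRANK1 had 50.4, 53.1 and 66.6 CPM in combined cells, against 19.2, 17.998 and 21.1 CPM in YTHDF1 KO cells. It had 26.9, 23.3 and 27.5 CPM in siARID1A cells, against 8.95, 10.4 and 8.61 CPM in WT cells, with a prediction of 54.1 CPM and an interval of -0.26 to 0.38. STRA6, the receptor of retinol-binding protein, was lowered by each change and averaged 14.7 ± 2.65 CPM in combined cells (SD, n = 3), near its prediction of 16.6 CPM. Among genes moved in opposite directions, RTN4RL2, a Nogo receptor homolog, averaged 29.6 ± 2.78 CPM in combined cells (SD, n = 3), with a prediction of 28.8 CPM. ADAMTS9, a secreted metalloprotease gene, averaged 30.1 ± 1.23 CPM, with a prediction of 27.6 CPM. Of the 3167 called genes, 75 lay on the other side of the added prediction, 15 positive and 60 negative genes, and 33 of them by more than 2 SE. That count is partly fixed by arithmetic. Where both single changes go in the same direction, the added prediction is the lower one, so genes above the multiplied prediction are above both. Such single changes were called at 887 of the positive genes. With opposite directions the added prediction is the higher one, the case for 108 of the negative genes.

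Genes of chromosome 9 were shifted together. The median interaction of its 712 tested genes was 0.38, and 34.4% of them were called positive and 3.51% negative. Their median change with siARID1A was 0.01 in the knockout background and -0.39 in the WT background, and YTHDF1 KO cells differed from WT cells there by a median of -0.35. In windows of 50 neighbouring genes along the chromosome, the medians were 0.04 to 0.15 in windows 1 to 4, 0.30 in window 5 and 0.45 to 0.60 in windows 6 to 14, which start at position 76419850 (GRCh38). Chromosome 17 had the lowest median, -0.12 over 1156 genes, with 14.9% called negative, and in its windows 12 to 22, from position 41835685, the medians were -0.43 to -0.16. The other 20 autosomes and the X chromosome had medians of -0.04 to 0.05. Outside chromosome 9, 7.85% of genes were called positive and 8.41% negative. With each chromosome scaled separately, 1395 genes were called positive and 1566 negative. DNA copy number was not measured, and its part in these shifts was not tested.

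**Figure D5:**
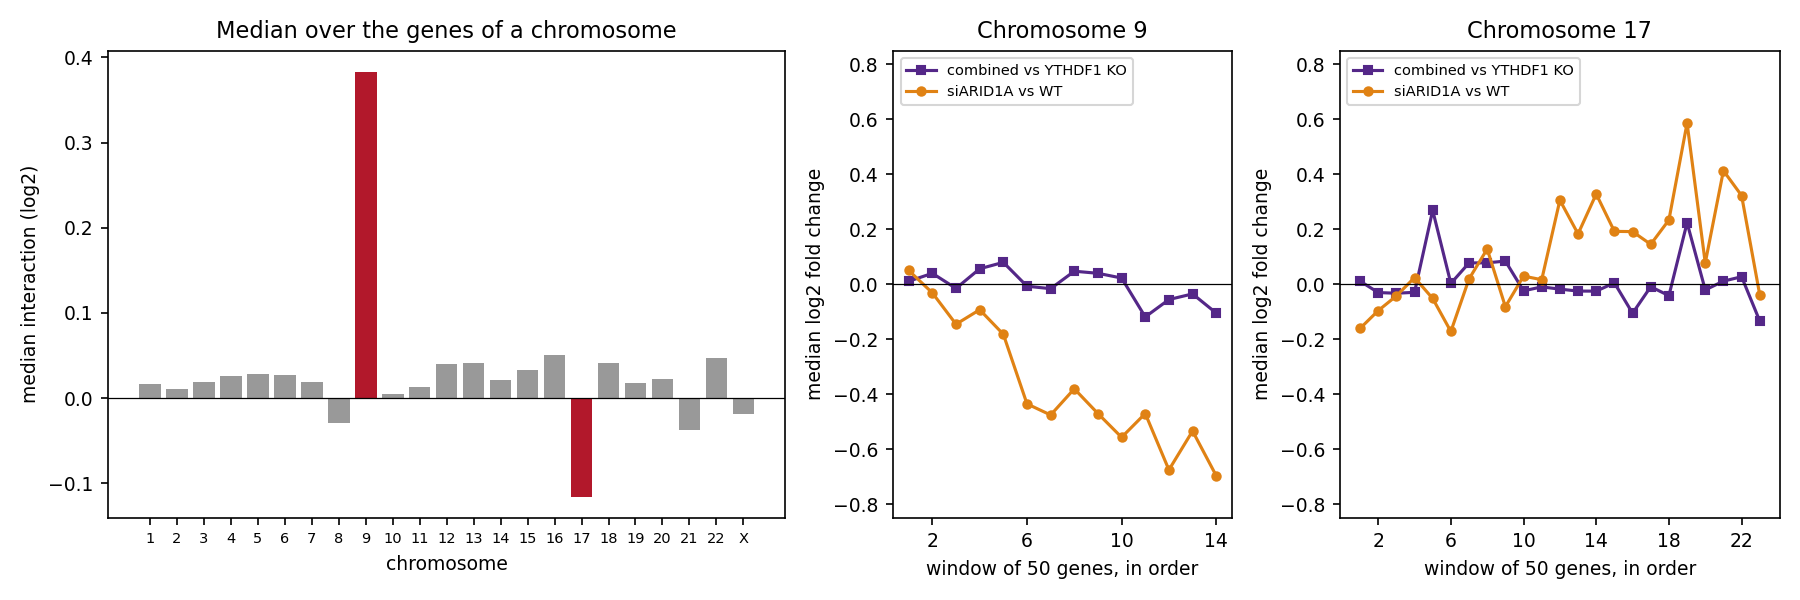
Median interaction of the genes on each chromosome (left, log2) and, along chromosomes 9 and 17, the median log2 change with siARID1A in windows of 50 neighbouring genes in each background (middle and right). On chromosome 9 the change in the knockout background stays near 0 while that in the WT background falls in the later windows, and on chromosome 17 the change in the WT background is above 0 in windows 12 to 22.

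Which single group stood apart from the other 3 was counted for each called gene, requiring that both comparisons of that group with a group differing in 1 change be called in the same direction and that the other 2 such comparisons be without a call. Knockout of YTHDF1, which 2 of these comparisons test, was called at 6563 genes (35.4%) in silenced cells and at 7489 genes (40.4%) in unsilenced cells. WT cells stood apart at 768 of the 3167 genes (24.2%), with 407 higher and 361 lower in WT. The siARID1A cells did so at 454, YTHDF1 KO cells at 105 and combined cells at 90. Of the 768 genes, 111 lie on chromosome 9, which holds 712 of the 18524 genes tested. Another 63 lie on chromosome 17, which holds 1156 of the genes tested. Without WT replicate 2 the counts were 704 for WT, 450 for siARID1A, 112 for YTHDF1 KO and 119 for combined cells. The balance of direction turned without that library: 330 genes were higher and 374 lower in WT cells, and 257 higher and 193 lower in siARID1A cells, against 203 higher and 251 lower in siARID1A cells with all libraries.

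The counts of the remaining lists are to be read against the 8.22% of all genes called negative and the 8.87% called positive. Lysosome and autophagy genes had 12 negative calls among 37 (32.4%), led by SQSTM1, the autophagy receptor p62, at -1.28 ± 0.14 (adjusted p = 4.63e-08). NRF2 targets had 5 negative (15.2%) and 4 positive (12.1%) among 33, and the positive count was 8 without WT replicate 2. HMOX1, the heme oxygenase, was negative at -1.20 ± 0.16 with the highest level in siARID1A cells, and GPX2, a glutathione peroxidase, was positive at 1.82 ± 0.33, while its mean departed from the added prediction by -144 ± 123 CPM (SE). Hypoxia and glycolysis genes had 6 negative and 4 positive (13.3%) among 30, with ADM, the vasodilator adrenomedullin, at -1.36 ± 0.09 and VEGFA, the angiogenic growth factor, at 0.68 ± 0.11. Genes of epithelial and mesenchymal state had 7 negative (26.9%) and 4 positive (15.4%) among 26. CDH1, E-cadherin, and CDH2, N-cadherin, were both positive, at 0.67 ± 0.10 and 0.70 ± 0.18, and ACTA2, smooth muscle actin, was negative at -1.69 ± 0.14. YAP targets had 4 negative and 2 positive among 20, of which the positive share is close to that of all genes.

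Of A549 and alveolar lineage genes, 8 of 22 were positive (36.4%, against 8.87% of all genes) and 4 negative (18.2%, against 8.22%), and the negative count was 2 without either YTHDF1 KO replicate 2 or WT replicate 3. MUC5AC, a secreted mucin, had 6.59, 4.92 and 5.85 CPM in combined cells, against 7.698, 6.53 and 5.78 CPM in YTHDF1 KO cells. Its level was 0.786, 0.815 and 0.6504 CPM in siARID1A cells, against 5.65, 6.81 and 5.28 CPM in WT cells. Only siARID1A libraries stood apart, below the rest, an interaction of 2.69 ± 0.22 (adjusted p = 6.23e-08). KRT8, an epithelial keratin, was positive at 0.69 ± 0.19 (adjusted p = 0.00147). With CDH1 it was one of 2 called positive among the 6 epithelial markers (33.3%, against 8.87% of all genes). Of these 6 markers, 0 were called negative by edgeR, 1 by DESeq2 and 2 by limma-trend. The edgeR count of negative calls was 1 without any one of combined replicate 2, siARID1A replicate 3 or WT replicates 1 and 2. It was also 1 under either other scaling of all genes, chromosome scaling or either other filter. Of 11 measured markers of non-epithelial cells, ACTA2 and ITGAM were negative (18.2%, against 8.22% of all genes).

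Among the m6A writers, erasers and readers, RBM15, FMR1 and IGF2BP1 were called of 23, and among SWI/SNF subunits SMARCD3 and ARID1A of 25, both smaller shares than the 17.1% of all genes. FMR1 lost its call in 10 of 22 alternatives, among them without any one of combined replicates 1 and 3, YTHDF1 KO replicates 2 and 3, siARID1A replicates 1 and 3 or WT replicate 2. IGF2BP1 lost its call in 8, 1 of which was scaling each chromosome separately. The others were fits without any one of combined replicates 1 and 2, YTHDF1 KO replicates 1 and 3, siARID1A replicates 1 and 2 or WT replicate 3. IGF2BP1 lies on chromosome 17, in a window of 50 neighbouring genes with a median interaction of -0.23, against its own -0.31. SMARCD3 lost its call without YTHDF1 KO replicate 3 or WT replicate 2. The paralogs were not called: YTHDF2 had an interaction of 0.17 ± 0.08 (95% interval -0.02 to 0.38), YTHDF3 0.01 ± 0.04 (-0.17 to 0.20) and ARID1B 0.29 ± 0.12 (0.06 to 0.52). Of 70 ribosomal protein genes, 1 was called positive (1.43%, against 8.87% of all genes), RPL7A on chromosome 9, and that count was 17 without WT replicate 2. RPL7A lies in a window of 50 neighbouring genes with a median interaction of 0.48. Among the alternatives that tested it, it lost its call only with chromosomes scaled separately (adjusted p = 0.239, edgeR). Of 13 mitochondrially encoded transcripts none was called by edgeR, limma-trend or DESeq2, 1 had an unadjusted p under 0.05, 4 were called positive without WT replicate 2 and 1 was called negative without WT replicate 3. Checkpoint ligands and related surface proteins had 5 negative calls among 16 (31.2%, against 8.22% of all genes). The list also had 1 positive call (6.25%, against 8.87% of all genes), LGALS9 at 1.26 ± 0.38 (adjusted p = 0.0127). Without siARID1A replicate 3 that positive count was 2. Among the negative calls, TNFRSF14 had 0 counts over the WT libraries and 26 over the siARID1A libraries, so its value depends on the prior count. The negative count of this list was 2 without YTHDF1 KO replicate 3 or siARID1A replicate 2. It was 3 without any one of combined replicate 2, YTHDF1 KO replicate 2, siARID1A replicate 3 or WT replicates 1 and 2.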

How the data were processed

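RNA from 12 A549 libraries was sequenced after a stranded TruSeq preparation, per the labels' protocols. The authors deposited raw counts per gene; the submitters' processing notes name Trim Galore 0.6.6, STAR 2.7.0d, featureCounts 2.0.1, edgeR 3.32.1 and the build GRCh38, and the annotation release and strand setting are not given in the sources used here. Reads of overlapping, antisense and near-identical genes may thus be shared.

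Of 60617 genes, 18524 passed edgeR's expression filter on the 4 groups and 42093 were left out. One edgeR 4.0.16 quasi-likelihood model (R 4.3.3, TMM scaling, robust, prior count 2) held all 12 libraries, and p-values were Benjamini-Hochberg adjusted over all genes tested. The biological coefficient of variation was 9.44%. Intervals of 95% came from limma 3.58.1 (trend), without adjustment, and SE from the group variances of log2 CPM; intervals and floors on single counts cover counting error only. Alternatives were 2 other scalings, scaling within chromosomes, 2 filters, limma, DESeq2 1.42.0, removal of chromosomes 2 and 9 or (chosen after seeing the data) 9 and 17, a replicate block and each library left out. The model was tested on simulated counts. Positions are from GENCODE 29 on GRCh38 and promoters from RefSeq on GRCh38.p14.

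Named genes were the targets, their relatives, genes of the series' themes, the 10 most positive and most negative interactions, 4 genes of opposite direction, 6 close to the prediction and up to 4 members of each list with the smallest p. Others are named as ends of a range, exceptions or by role, after their values were seen. Some genes that met these rules are not reported here. The comparison, lists and rules were chosen with earlier results of these data known. Same-numbered libraries did not deviate together (correlations -0.042 to 0.033), so replicate numbers were not taken as pairs.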

Additional observations from a re-analysis of the deposited data

Results flagged for a closer look

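In 14 named genes siARID1A was called in opposite directions in the 2 backgrounds, and the interaction, which tests that difference, was called by edgeR's quasi-likelihood test. All values are log2.

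Of the genes that fell in the knockout background and rose in the WT background, OXTR, the oxytocin receptor gene, had changes of -1.20 and 1.04 and an interaction of -2.24. HMGA2 had -1.42 and 0.46, with -1.88. SCARA3 had -0.28 and 1.19, with -1.47. CAV1 had -0.51 and 0.96, with -1.46. CLU had -0.56 and 0.90, with -1.46. For CXCL5 they were -0.31 and 1.14, with -1.45. ADM had -0.36 and 1.00, with -1.36. IRAK2, a kinase of interleukin 1 signalling, had -0.41 and 0.87, with -1.28.

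Of the genes that rose in the knockout background and fell in the WT background, ASS1 had changes of 0.70 and -1.86 and an interaction of 2.56. For IQGAP2, a scaffold protein gene, they were 0.86 and -1.32, with 2.18. SAMD11 had 1.16 and -0.78, with 1.93. STARD4, a sterol carrier gene, had 0.31 and -0.55, with 0.86. SCD had 0.39 and -0.33, with 0.72. For KRT8 they were 0.28 and -0.41, with 0.69. These genes were chosen among those called, so the list is a description.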

How the results depend on the processing

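The number of genes called positive was 1259 to 1733 with 1 library left out and 1167 to 1633 under the other 10 alternatives, against 1644; for negative calls the ranges were 1239 to 1758 and 1249 to 1795, against 1523. DESeq2 called 1633 and 1795, and a fit with the replicate block, whose pairing the data did not bear out, called 1549 and 1430. The libraries did not all correlate best with their own number. No scaling moved the median of all genes by over 0.1. Genes close to the prediction numbered 5592 at a margin of 0.5, 492 at 0.25 and 10937 at 1. Of 111 called genes named by rule, 102 kept their call in all 22 alternatives and none of the 111 changed sign in them. The 9 that lost it in at least 1 were ARID1A, CGAS, CTSL, FMR1, H4C8, IGF2BP1, RPL7A, SMARCD3 and TNFRSF14. Of these, CTSL and RPL7A, both on chromosome 9, lost it only with chromosomes scaled separately. The cause of these losses was not tested. Called genes named outside the rules, such as EDEM1, RAD51C and RAD52, are not in these counts.

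On the linear CPM scale 7 named called genes lay on the other side of the added prediction: IFIT1 by 318, IFI6 by 249, IFIH1 by 47.2 and TM4SF4 by -70.0 CPM, and, within 2 SE, PTGS2 by 46.4, TNFRSF14 by 0.0829 and GPX2 by -144 CPM. Signs also turned for genes that were not called. YTHDF3 was -0.0101 with RLE factors, -0.00263 with library totals, -0.0105 without a filter, -0.0138 at 10 CPM or more, -0.0102 with DESeq2, and -0.0226 to 0.0376 with 1 library left out. STING1 was -0.0228 with limma and -0.216 to 0.555 with 1 library left out, and CXCL10 was 0.155 with limma and -0.483 to 0.559 with 1 left out. IRF7 was 0.00165 without chromosomes 2 and 9, 0.00137 with limma and -0.145 to 0.159 with 1 library left out. OASL was -0.00591 with DESeq2 and -0.0781 to 0.168 with 1 library left out, TRANK1 was -0.0557 to 0.156 and RTN4RL2 -0.0906 to 0.127. Genes with few or no counts per library in some of the groups, such as CGAS, CXCL10 and LUM, are limited by depth there.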
